A study of Mus musculus with 3 samples.

Results

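A set of 9 genes that carry signals between neurons and microglia was followed across the cell classes of the mouse nucleus accumbens. They are the growth factor genes Csf1 and Il34 with their shared receptor gene Csf1r, the fractalkine gene Cx3cl1 with its receptor gene Cx3cr1, Cd47 with Sirpa, and Cd200 with Cd200r1. The 9 genes were taken by symbol from 28001 features, 27998 of them with Ensembl identifiers, and all 9 were found. The tissue came from Thy1::ChR2 mice, which carry the light-gated channel channelrhodopsin (ChR2) under the Thy1 promoter, a promoter active in neurons. All animals were of this strain and were labelled with FLiCRE, a reporter system that records a rise in calcium that coincides with light, during ChR2 stimulation in the nucleus accumbens. The brain was dissected in the coronal plane at 400 um, per the labels, and 3 libraries of single cells form 1 group. No unstimulated or unlabelled group was analysed here, so each comparison was made between cell classes of the same libraries. Age and the number of animals per library are not given in the labels, and p-values therefore measure only the spread between these libraries, which may be technical.

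Microglia, the resident phagocytes of the brain, depend on signalling through CSF1R, a receptor tyrosine kinase that binds both colony-stimulating factor 1 and interleukin 34. Fractalkine is a membrane-anchored chemokine of neurons that can be shed by proteases and binds the G-protein-coupled receptor CX3CR1. CD47 and CD200 are surface proteins that restrain phagocytes through the inhibitory receptors SIRPA and CD200R1. MHC-II macrophages are phagocytes that present antigen on class II molecules, and in the brain they are usually found at its borders or after entry from blood.

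In the GENCODE M21 annotation of the mm10 genome, whose identifiers match those of the files, Csf1 (ENSMUSG00000014599) lies on chr3:107741048-107760469 and Il34 (ENSMUSG00000031750) on chr8:110741829-110805924, both on the minus strand. Cx3cl1 (ENSMUSG00000031778) lies on chr8:94772009-94782427, plus strand, and Cx3cr1 (ENSMUSG00000052336) on chr9:119901616-120069879, minus strand. Cd47 (ENSMUSG00000055447) lies on chr16:49800533-49915010, plus strand, and Sirpa (ENSMUSG00000037902) on chr2:129592835-129632228, plus strand. Cd200 (ENSMUSG00000022661) lies on chr16:45382135-45409053, minus strand, and Cd200r1 (ENSMUSG00000022667) on the same chromosome at chr16:44765736-44794978, plus strand. The identifier of Csf1r is ENSMUSG00000024621. Sirpa and Cd200r1 have close paralogs (the Sirpb1 genes and Cd200r2 to Cd200r4), so reads shared between copies make their counts less certain.

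Libraries 1 to 3, numbered by barcode suffix, held 2306, 5783 and 1834 cells after filtering, with median depths of 985.5, 2084 and 2674 unique molecular identifiers (UMIs, molecular tags that count each RNA molecule once). Pairs of libraries shared 13 (1 with 2), 7 (1 with 3) and 22 (2 with 3) barcode sequences. Cells were assigned to classes one by one from marker genes, none of which is among the 9 genes. This gave 4166 neurons, 1264 oligodendrocytes, 977 astrocytes, 425 endothelial cells, 264 mural cells (pericytes and smooth muscle), 263 microglia, 166 MHC-II macrophages, 82 oligodendrocyte precursors (OPC), 66 T cells and 38 fibroblasts. A further 2187 cells (22.0%) met no gate. Microglia numbered 53, 144 and 66 in libraries 1 to 3 and MHC-II macrophages 60, 90 and 16. Levels are given in CPM, the counts of a gene scaled to a fixed total of UMIs (10 to the power of 6) over the cells of a class in 1 library. The same marker lists assigned the cells, so marker sums describe the 2 phagocyte gates and do not test them. The 8 microglial markers summed to 7428, 10275 and 12260 CPM in microglia and 1225, 873 and 626 CPM in MHC-II macrophages. The 8 MHC-II macrophage markers summed to 1942, 3878 and 1683 CPM in microglia against 46304, 44861 and 54455 CPM in the macrophages. Classes enter with at least 10 cells in a library, which leaves T cells and fibroblasts with 2 libraries. In sums over cells, fewer expressing cells and less RNA per cell cannot be told apart.

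**Figure D1:**
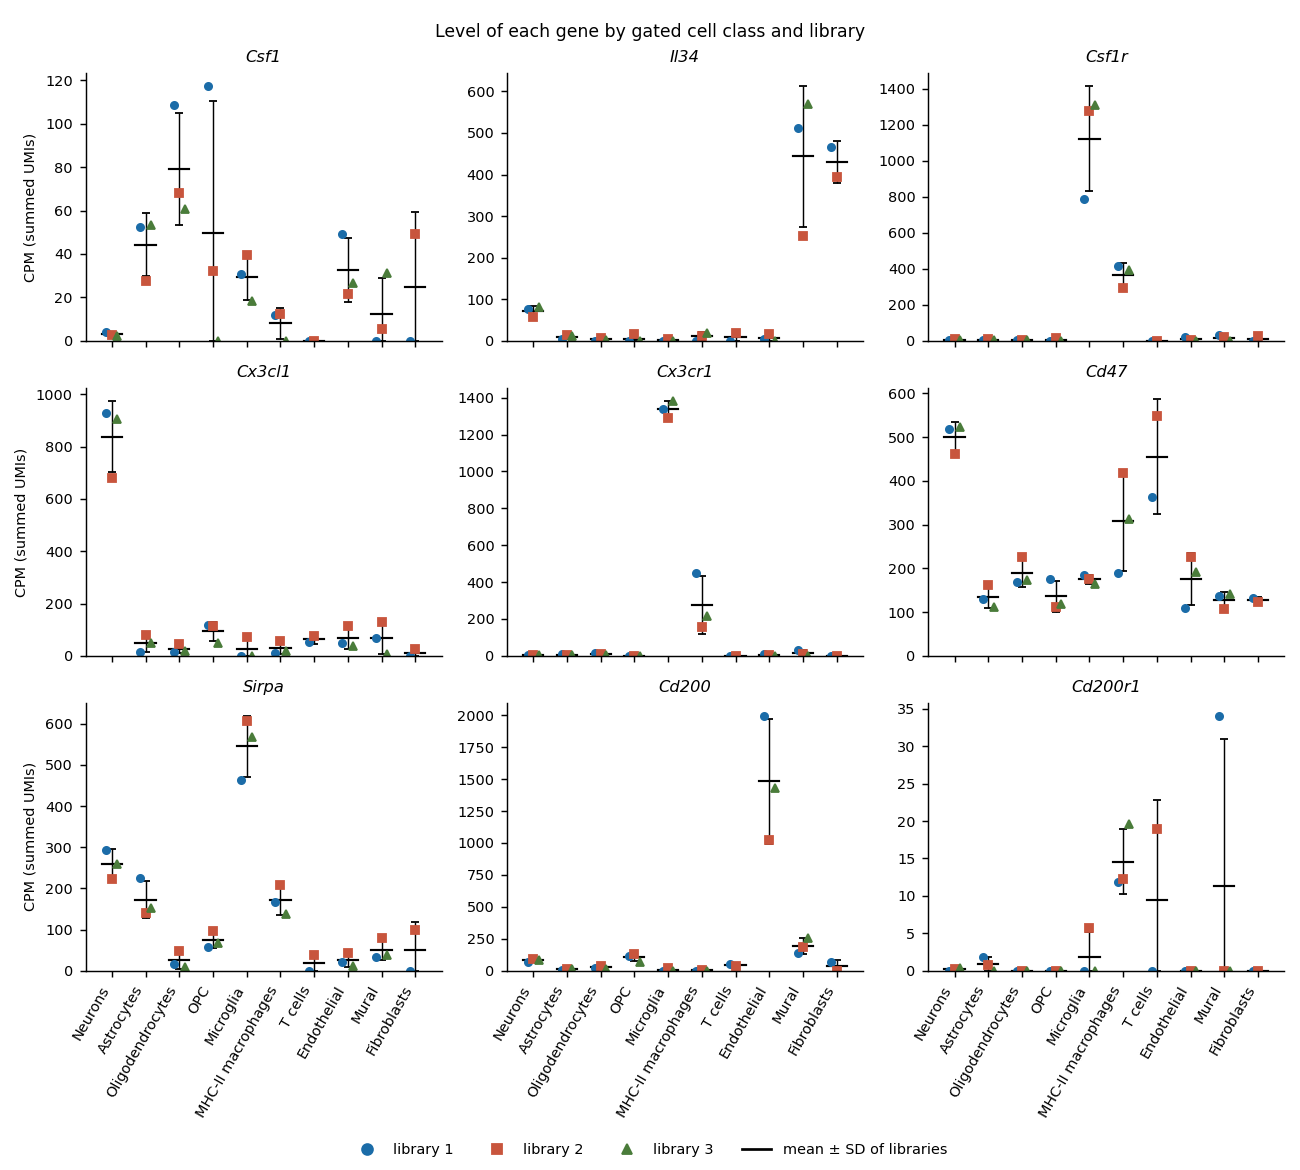
Level of each of the 9 genes (CPM, linear axis) in 10 gated cell classes; points are libraries, the bar is the mean and whiskers are ± SD, cut off at 0. Csf1r, Cx3cr1 and Sirpa stand highest in microglia, Cx3cl1 in neurons, Cd200 in endothelial cells and Il34 in mural cells and fibroblasts.

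Of the 5 ligand genes, Cx3cl1 was the one with its highest level in neurons in every library. Cd47 was highest in neurons by its mean but overlapped with T cells. Cd200, Il34 and Csf1 had their highest means in endothelial, mural and oligodendrocyte sums. Differences between neurons and other classes were tested on summed counts with edgeR's quasi-likelihood test. The model held library as a block, p-values were adjusted by Benjamini-Hochberg over all genes tested, and the threshold was 0.05. Against astrocytes, 6 of the 9 genes had enough counts to be tested and 5 passed, 4 higher and 1 lower in neurons, where 60.9% of all 9819 genes tested passed (31.4% higher and 29.5% lower). Against oligodendrocytes 6 of 6 tested passed (64.1% of 9930 genes; 32.1% higher, 31.9% lower), 5 higher and 1 lower, and against endothelial cells 6 of 6 (56.4% of 8360 genes; 29.3% higher, 27.2% lower), 4 higher and 2 lower. These shares of all genes are high, and a gene that entered the test only through its high class had to differ, so the counts describe the genes and do not set them apart. The 3 comparisons share the neuron sums.

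Cx3cl1, the fractalkine gene, reached 929, 681 and 905 CPM in neurons of libraries 1 to 3. Each neuron value lay above each value of the other classes, whose highest mean was 93.4 ± 37.0 CPM in OPC (SD, n = 3 libraries). Neurons exceeded the others by log2 fold changes of 3.62 over astrocytes (SE 0.430, edgeR adjusted p 0.000334), 4.27 over oligodendrocytes (SE 0.352, edgeR adjusted p 2.33e-06) and 3.15 over endothelial cells (SE 0.371, edgeR adjusted p 2.07e-05), higher in 3 of 3 libraries each time. A Cx3cl1 UMI was found in 78.2% ± 9.93 of neurons (median depth 2345 UMIs) and in 6.38% ± 4.51 of oligodendrocytes (1844.5 UMIs). After thinning each cell to 1000 UMIs the shares were 55.2% ± 5.79 and 1.96% ± 1.34. Too shallow to be thinned were 380 of 4166 neurons and 298 of 1264 oligodendrocytes. In the gated cells, neurons held 96.2% ± 0.896 of Cx3cl1 UMIs while being 49.2% of the cells.

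Cx3cl1 was also counted at low levels outside neurons, where neuronal markers were counted too. In microglia Cx3cl1 was 0, 73.6 and 0 CPM in libraries 1 to 3, and the 8 neuronal markers summed to 30.8, 736 and 183 CPM in the same cells. In astrocytes Cx3cl1 was 14.9, 78.9 and 50.6 CPM beside neuronal markers at 67.2, 600.0 and 234 CPM. Endothelial cells had 49.2, 115 and 38.4 CPM of Cx3cl1 beside markers at 109, 657 and 161 CPM, and mural cells 68.1, 128 and 7.79 CPM beside 136, 616 and 203 CPM. Library 2 was the highest in both measures in these 4 classes. In endothelial and mural cells library 1 exceeded library 3 in Cx3cl1 and lay below it in the markers. Those values rest on 9 against 10 Cx3cl1 UMIs in endothelial cells and 2 against 1 in mural cells, so these orders are uncertain. In OPC, Cx3cl1 was highest in library 1 (117, 112 and 50.9 CPM), but from only 2, 7 and 3 UMIs. In neurons themselves the markers summed to 6666, 5858 and 7921 CPM. The part of neuronal RNA in these non-neuronal values was not tested.

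Il34, the second CSF1R ligand and the one usually ascribed to neurons, had its highest levels in mural cells and fibroblasts. It reached 511, 252 and 569 CPM in mural cells and 466 and 394 CPM in the fibroblasts of libraries 1 and 2, against 76.9, 57.4 and 81.9 CPM in neurons. The mural and fibroblast ranges overlapped with each other and both lay above the neuron range, a difference that no planned test covered. Fibroblast markers summed to 1363, 980 and 351 CPM in the mural cells, and their part in the mural value was not tested. A UMI was found in 37.9% ± 16.9 of mural cells (median depth 1043 UMIs), 15.8% ± 7.28 of neurons and 0.950% ± 0.915 of oligodendrocytes. After thinning to 1000 UMIs the shares were 33.1% ± 12.9, 7.44% ± 1.48 and 0.185% ± 0.178. For that, 121 of 264 mural cells were too shallow, and library 1 kept only 5 mural cells. In gated cells, neurons held 74.3% ± 6.76 of Il34 UMIs as 49.2% of the cells, and mural cells held 15.998% ± 6.94 as 3.41% of the cells. Neurons were also the deeper class (median 2345 against 1043 UMIs). The parts of cell number and depth in these shares were not tested.

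Il34 was higher in neurons than in the remaining classes tested, with log2 fold changes of 2.18 over astrocytes (SE 0.343, edgeR adjusted p 0.00104), 3.39 over oligodendrocytes (SE 0.475, edgeR adjusted p 8.21e-05) and 2.61 over endothelial cells (SE 0.582, edgeR adjusted p 0.00206), in 3 of 3 libraries each. The call against endothelial cells did not survive leaving out library 1 (2.54, edgeR adjusted p 0.0822) or library 3 (1.98, edgeR adjusted p 0.0550).

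Csf1 was the ligand with the least signal in neurons. Neurons held 3, 23 and 6 Csf1 UMIs in libraries 1 to 3, or 3.98, 2.83 and 2.06 CPM. Oligodendrocytes, the myelinating cells, stood at 109, 68.1 and 60.5 CPM, and astrocytes at 52.3, 27.4 and 53.3 CPM. The ranges of these 2 glial classes lay above the neuron range and did not overlap with each other. OPC, with 4 Csf1 UMIs in all, had a mean of 49.8 ± 60.6 CPM (SD, n = 3 libraries). Their range, 0 to 117 CPM, overlapped those of neurons, astrocytes and oligodendrocytes. Neurons were lower than astrocytes by a log2 fold change of -4.34 (SE 0.362, edgeR adjusted p 5.71e-05), than oligodendrocytes by -5.35 (SE 0.303, edgeR adjusted p 1.01e-07) and than endothelial cells by -3.79 (SE 0.526, edgeR adjusted p 6.75e-05), in 3 of 3 libraries. Microglia themselves held 30.8, 39.6 and 18.3 CPM, from 11 UMIs in all. A Csf1 UMI was found in 15.5% ± 5.35 of oligodendrocytes and 0.700% ± 0.159 of neurons, and after thinning to 1000 UMIs in 7.58% ± 2.87 and 0.242% ± 0.0474. Oligodendrocytes held 53.6% ± 1.21 and astrocytes 26.5% ± 5.49 of Csf1 UMIs in gated cells.

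Cd200, whose product restrains CD200R1-bearing phagocytes, was foremost an endothelial transcript. Endothelial cells reached 1996, 1024 and 1431 CPM, mural cells 136, 187 and 257 CPM and neurons 71.6, 95.2 and 84.6 CPM. The 3 ranges did not overlap. OPC, with 14 UMIs in all, had a mean of 104 ± 32.2 CPM (SD, n = 3 libraries), above that of neurons, with overlapping ranges. Neurons were lower than endothelial cells by a log2 fold change of -4.58 (SE 0.363, edgeR adjusted p 8.68e-07), and higher than astrocytes by 2.38 (SE 0.296, edgeR adjusted p 0.000335) and than oligodendrocytes by 1.07 (SE 0.275, edgeR adjusted p 0.00504). The call against oligodendrocytes was lost without library 3 (0.80, edgeR adjusted p 0.0725). Of Cd200 UMIs in gated cells, endothelial cells held 82.4% in library 1 and 29.8% in library 2, and neurons 12.2% and 60.4%. Endothelial cells made up a larger part of library 1 than of library 2 (147 of 2306 against 192 of 5783 cells), and the order of levels, endothelial over mural over neurons, was the same in the 3 libraries. Cells gated as dendritic, 10 in library 1 and 7 in library 2, held 5 and 6 Cd200 UMIs (540.1 and 667 CPM).

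Cd47, a widely expressed surface protein that binds SIRPA, was detected in every class. Neurons stood at 518, 461 and 523 CPM, T cells at 362 and 549 CPM, MHC-II macrophages at 190.3, 418 and 313 CPM and microglia at 185, 176 and 165 CPM. Mural cells had the lowest mean, 128 ± 18.1 CPM (SD, n = 3 libraries). The ranges of neurons and T cells overlapped, and no neighbours in the order of the 10 class means were apart beyond their ranges. Neurons were higher than astrocytes by 1.33 (log2, SE 0.207, edgeR adjusted p 0.000973), than oligodendrocytes by 0.69 (SE 0.211, edgeR adjusted p 0.0137) and than endothelial cells by 1.03 (SE 0.271, edgeR adjusted p 0.00616). The call against oligodendrocytes was lost without library 3 (0.60, edgeR adjusted p 0.159), and that against endothelial cells without library 1 (0.87, edgeR adjusted p 0.0643) or library 3 (1.11, edgeR adjusted p 0.0775).

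**Figure D2:**
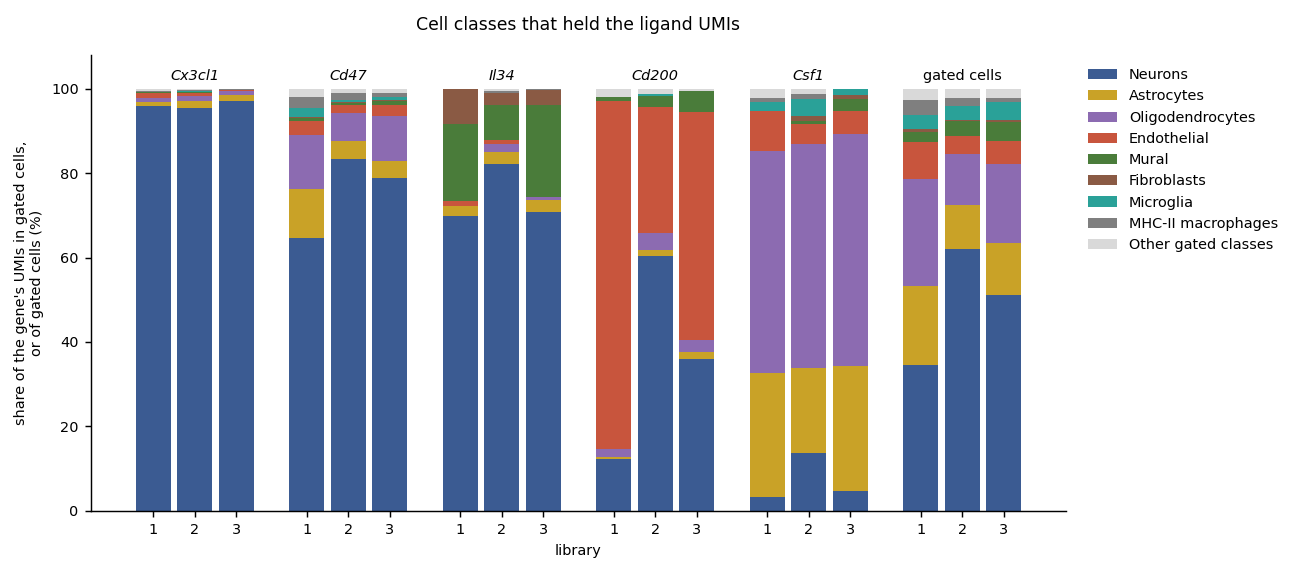
Share of each ligand gene's UMIs in gated cells that came from each class (%), with the make-up of the gated cells on the right; 1 bar per library. Neurons fill the Cx3cl1 bars in the 3 libraries, oligodendrocytes and astrocytes most of the Csf1 bars, and the endothelial part of Cd200 ranges from 29.8% to 82.4%.

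Values in these comparisons depend on how sums are scaled. edgeR's TMM scaling sets most genes to no change, whereas CPM uses the total. With totals in place of TMM, a choice made after seeing the data, the median log2 fold change of all genes moved from 0.087 to 0.65 for neurons over astrocytes, from 0.026 to 0.72 over oligodendrocytes and from 0.059 to 0.55 over endothelial cells. The part of passing genes that were higher in neurons then moved from 51.5% to 70.9%, from 50.2% to 74.2% and from 51.9% to 66.5%. The 5 ligand genes kept their direction and call under both scalings in all 3 comparisons. Sirpa in neurons over astrocytes did not: it was 0.03 with TMM (SE 0.199, edgeR adjusted p 0.894) and 0.61 with totals (SE 0.190, edgeR adjusted p 0.0193), close to the shifted median.

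**Figure D3:**
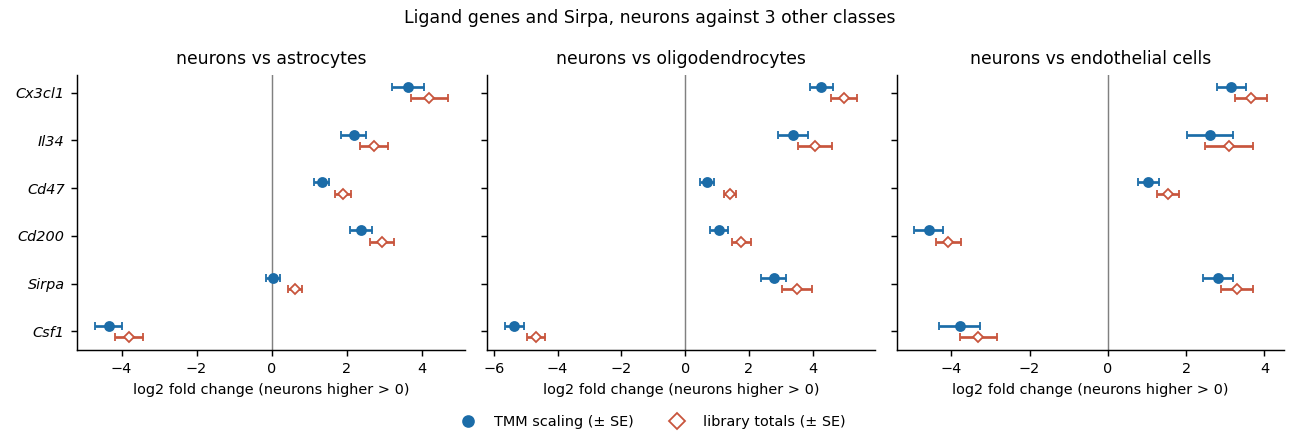
Log2 fold change of neurons over astrocytes, oligodendrocytes and endothelial cells for the ligand genes and Sirpa, with edgeR standard errors; filled points use TMM scaling and open points library totals. Csf1 lies below 0 in each panel, Cd200 below 0 only against endothelial cells, and Sirpa against astrocytes moves from 0.03 to 0.61.

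The receptors were then compared between microglia and MHC-II macrophages. In that comparison 1290 genes were tested and 17.1% passed, 10.6% as higher and 6.51% as lower in microglia. That share rests in part on single libraries: 80 of 2312 genes passed without library 1, 112 of 990 without library 2 and 273 of 1778 without library 3. Of the 9 genes 4 could be tested, and Csf1r, Cx3cr1 and Sirpa passed as higher in microglia. Csf1, Il34, Cx3cl1, Cd200 and Cd200r1 had too few counts in these cells.

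Csf1r reached 786, 1274 and 1308 CPM in microglia and 416, 295 and 391 CPM in MHC-II macrophages. The ranges did not overlap, and the other classes with at least 10 cells in 2 or more libraries had means of at most 18.5 CPM. Microglia were 2.98-fold higher in 3 of 3 libraries (log2 1.57, SE 0.275, edgeR adjusted p 0.00336). A Csf1r UMI was found in 68.5% ± 8.74 of microglia (median depth 987 UMIs), 41.7% ± 12.6 of MHC-II macrophages (1231.5 UMIs) and 1.37% ± 1.18 of neurons (2345 UMIs). Thinned to 1000 UMIs, which 128 microglia and 101 macrophages were deep enough for, the shares were 62.3% ± 9.06, 22.3% ± 3.92 and 0.454% ± 0.320. Without library 2 the log2 fold change was 1.29 and missed the threshold (edgeR adjusted p 0.0580).

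Cx3cr1, the fractalkine receptor gene, was the most even across libraries in microglia, at 1341, 1291 and 1382 CPM. MHC-II macrophages varied more, at 452, 154 and 215 CPM, still below each microglial value. The log2 fold change of 2.34 (SE 0.317, edgeR adjusted p 0.00101), a 5.08-fold difference, passed in each fit that left out 1 library (2.01 to 2.86). A UMI was found in 71.6% ± 6.85 of microglia, 30.5% ± 10.1 of MHC-II macrophages and 1.02% ± 0.684 of neurons. In the macrophages, library 1 had both the highest Cx3cr1 and the highest sum of microglial markers (1225 CPM against 873 and 626). Between the other libraries the orders differed: library 3 exceeded library 2 in Cx3cr1, from 11 against 25 UMIs, and lay below it in the markers. The part of microglial RNA in the macrophage values was not tested.

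Sirpa, which encodes the receptor for CD47, stood at 462, 606 and 567 CPM in microglia and 166, 209 and 137 CPM in MHC-II macrophages, with no overlap. Microglia were 3.001-fold higher in 3 of 3 libraries (log2 1.59, SE 0.269, edgeR adjusted p 0.00295). The call was lost when library 1 was left out (1.65, edgeR adjusted p 0.0636). Sirpa was also found outside phagocytes: neurons held 294, 223 and 260 CPM and astrocytes 224, 141 and 152 CPM, the neuron range lying above that of the macrophages and the astrocyte range overlapping it. Neurons held 71.6% ± 14.01 of Sirpa UMIs in gated cells and microglia 6.22% ± 1.37. After thinning to 1000 UMIs a Sirpa UMI remained in 41.0% ± 5.60 of microglia, 23.1% ± 2.03 of neurons, 22.5% ± 7.88 of MHC-II macrophages and 2.24% ± 1.93 of oligodendrocytes. Neurons were higher in Sirpa than oligodendrocytes by 2.78 (log2, SE 0.397, edgeR adjusted p 0.000112) and than endothelial cells by 2.81 (SE 0.384, edgeR adjusted p 6.59e-05).

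Cd200r1, the inhibitory receptor for CD200, was barely sampled. All gated cells together held 15 Cd200r1 UMIs, of which 4 lay in MHC-II macrophages (1, 2 and 1 in libraries 1 to 3), 3 in the 6 cells gated as border macrophages, 3 in neurons and 1 in microglia. The macrophage levels were 11.9, 12.3 and 19.6 CPM. In microglia, 0 UMIs in libraries 1 and 3 allow levels of up to 46.2 and 27.4 CPM (3 UMIs of the class total), above the macrophage values. The ratio of MHC-II macrophages to microglia over pooled UMIs was 4.71 with an exact 95% interval from 0.466 to 232, so a difference was not detectable at this depth. Intervals and such limits cover counting error only.

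Cd47 was the ligand gene abundant enough to be tested between the phagocytes. It was lower in microglia in 3 of 3 libraries with a log2 fold change of -0.90 (SE 0.303) but missed the threshold (edgeR adjusted p 0.0766). It passed without library 3 (-0.98, edgeR adjusted p 0.0283), with a gate of 4 markers (-1.11, edgeR adjusted p 0.0395) and with classes from clusters (-1.07, edgeR adjusted p 0.00843), and the highest adjusted p among the alternatives was 0.645 (edgeR, without library 2).

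With classes from clusters, 351 cells that met no gate fell with MHC-II macrophages and 174 with microglia. Cells without a gate held 464 Csf1r UMIs, against 419 in gated microglia, so the gated classes leave out many phagocytes. Of the cells that met no gate, 78 (19, 45 and 14) passed both phagocyte marker lists and so entered neither class. These 78 cells were examined after the data were seen. Their Csf1r levels of 589, 750.2 and 863 CPM and Cx3cr1 levels of 752, 721 and 664 CPM lay between those of the gated classes in each library. Sirpa was 589, 365 and 166 CPM in them, above the microglial value in library 1. Their microglial markers summed to 5002, 8666 and 6609 CPM and their MHC-II macrophage markers to 18310, 10743 and 8103 CPM, and the part of mixed droplets in these cells was not tested.

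**Figure D4:**
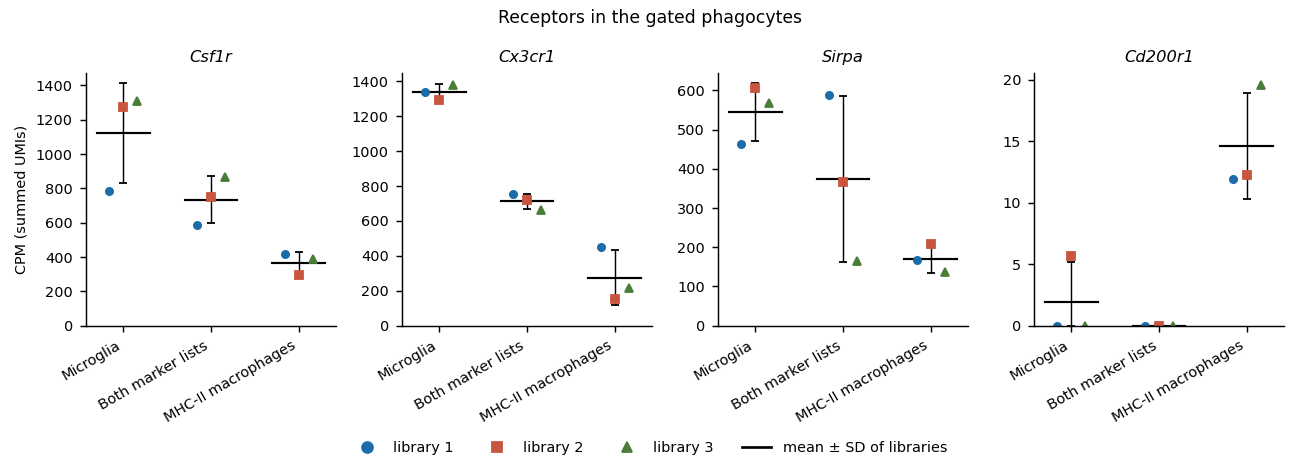
Levels of the 4 receptor genes (CPM) in microglia, in cells that pass both phagocyte marker lists and in MHC-II macrophages; points are libraries, the bar is the mean and whiskers are ± SD, cut off at 0. Csf1r and Cx3cr1 step down from left to right in each library, and Cd200r1 rests on 5 UMIs.

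Receptor transcripts were also read together in single cells. At least 2 of the 4 receptor genes had a UMI in 71.7%, 64.6% and 74.2% of microglia in libraries 1 to 3 and in 26.7%, 22.2% and 37.5% of MHC-II macrophages, although the median depth of the macrophages was the higher. At least 1 receptor gene was seen in 88.7%, 93.1% and 89.4% of microglia and in 61.7%, 54.4% and 81.2% of the macrophages. Thinned to 1000 UMIs, these shares were 80%, 94.1% and 94.3% against 57.1%, 44.6% and 40%. They rest on 25, 68 and 35 microglia and on 35, 56 and 10 macrophages, so the last macrophage share is the least certain.

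Microglia were also set against neurons. Of 7516 genes tested 40.7% passed, 19.1% as higher and 21.6% as lower in microglia, and of the 9 genes 7 were tested and 6 passed. Csf1r and Cx3cr1 had means of 5.36 and 3.80 CPM in neurons, and Il34 and Cd200 1.89 and 7.55 CPM in microglia. A gene that entered the test only through its high class had to differ, so these calls too describe the genes and do not set them apart. The receptor genes were higher in microglia: Csf1r by 8.47 (log2, SE 0.571, edgeR adjusted p 1.58e-05), Cx3cr1 by 9.03 (SE 0.521, edgeR adjusted p 1.48e-05) and Sirpa by 1.78 (SE 0.331, edgeR adjusted p 0.00264). The size of the Sirpa difference depends on scaling: the TMM fit gave 3.45-fold, whereas the CPM means (545 in microglia, 259 in neurons) differed 2.10-fold. Ligand genes were lower in microglia: Cx3cl1 by -4.21 (SE 0.785, edgeR adjusted p 0.00269), with Il34 (edgeR adjusted p 0.00695) and Cd200 (edgeR adjusted p 0.0267) also passing. Microglia held 1 Il34 UMI and 4 Cd200 UMIs, so the fitted values of those 2 genes depend on the prior count; over pooled UMIs neurons were 22.7-fold higher in Il34 (exact 95% interval 4.06 to 897) and 7.99-fold higher in Cd200 (3.11 to 29.4). Cd47 was lower by -0.82 (SE 0.339) and missed the threshold (edgeR adjusted p 0.0811), but passed with library totals (-1.51, edgeR adjusted p 0.00594), where the median of all genes moved from -0.25 to -0.92 and the part of passing genes higher in microglia from 46.8% to 27.8%. Csf1r and Cx3cr1 passed whichever library was left out. Il34 and Cd200 passed in none of these 3 fits (edgeR adjusted p 0.0707 to 0.126 and 0.0709 to 0.223), Sirpa was lost without library 1 (0.0592) or library 3 (0.131), and Cx3cl1 without library 3 (0.143). The calls of all genes fell in the same fits, to 1180 of 10866 genes without library 1 (75.3% of them higher in microglia), 1543 of 7423 without library 2 (58.9% higher) and 303 of 7703 without library 3 (99.67% higher), so nearly all lower calls were lost with library 3. Without library 1, Csf1, which had too few counts to be tested in the reported fit, was higher in microglia (3.94, edgeR adjusted p 0.0412).

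Other genes of these pathways were read from 5 lists with 48 genes in all. Between microglia and MHC-II macrophages 20 of the 48 were tested and 7 passed, beside 17.1% of all genes. None of the 5 tested genes of CSF1R signalling passed (edgeR); the transcription factor genes Spi1 and Irf8 stood at 371 ± 94.6 and 567 ± 125 CPM in microglia and at 386 ± 123 and 601 ± 365 CPM in the macrophages (SD, n = 3 libraries). Of 3 tested genes of fractalkine processing, Adam10, a sheddase of fractalkine, was higher in microglia (176 ± 53.8 against 35.3 ± 10.2 CPM, log2 fold change 2.32, edgeR adjusted p 0.00459). None of 3 tested genes of SIRPA signalling passed, and none of the 6 genes listed for CD200R signalling could be tested. Among 9 tested genes of other neuron-microglia pairs, 4 were higher and 2 lower. Mertk, a receptor for phagocytosis of apoptotic cells, was higher by 2.99 (edgeR adjusted p 0.0129), its bridging ligand gene Gas6 by 2.53 (edgeR adjusted p 0.00152), and the TGF-beta receptor genes Tgfbr2 by 1.996 (edgeR adjusted p 0.00626) and Tgfbr1 by 1.202 (edgeR adjusted p 0.0304). Axl, a receptor of the same family as Mertk, was lower in microglia (43.1 ± 30.4 against 216 ± 57.0 CPM, -2.41, edgeR adjusted p 0.00614), as was the lipid carrier gene Apoe (-1.85, edgeR adjusted p 0.000218). The count of 7 was 1 without library 1, 4 without library 2 and 8 without library 3.

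Against neurons, 28 listed genes were tested and 22 passed, 21 higher and 1 lower in microglia, with 40.7% of all genes passing. Listed genes that entered the test only through microglia had to be higher there, so the count is not read as an excess over that share. The largest increases were those of Mertk (8.35), the lipid receptor gene Trem2 (8.21), the cathepsin gene Ctss (7.85), the adaptor gene Fyb (7.62) and Spi1 (7.45), with edgeR adjusted p from 1.48e-05 to 4.53e-05. Ptpn11, a phosphatase gene that acts below SIRPA, was the 1 lower gene (20.2 ± 9.88 against 84.3 ± 8.23 CPM, -1.54, edgeR adjusted p 0.0412), whereas Ptpn6, its relative in blood cells, was higher (6.81, edgeR adjusted p 8.71e-05). Without library 3 the count was 14.

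Ligand levels were next compared between classes of neurons. D1-like and D2-like cells, the main spiny projection neurons named here for their dopamine receptor markers, numbered 1613 and 1056. Between them 0 of 5 tested genes of the set passed with edgeR, where 3.43% of 8809 genes did (1.83% higher, 1.6% lower; 302 genes, but 52 without library 3 and 107 without library 2), 0 had an unadjusted p under 0.05 and 0 passed with DESeq2. Cx3cl1 stood at 1039, 761 and 1087 CPM in D1-like and 1005, 718 and 1030 CPM in D2-like neurons. The ranges overlapped, with a log2 fold change of 0.05 (SE 0.0596, edgeR adjusted p 0.879). That of Il34 was 0.19 (SE 0.154), of Cd47 0.06 (SE 0.0716), of Sirpa 0.10 (SE 0.0922) and of Cd200 0.28 (SE 0.142).

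Glutamatergic neurons (238 cells) were set against the 2669 spiny neurons. Of 5 tested genes of the set 1 passed, beside 17.1% of 7762 genes (9.44% higher, 7.61% lower). Cx3cl1 was lower in glutamatergic neurons, at 705, 465 and 671 CPM against 1022, 745 and 1063 CPM. Within each library the glutamatergic value was the lower, and the ranges did not overlap. The log2 fold change of -0.62 (SE 0.165, edgeR adjusted p 0.0259) missed the threshold with DESeq2 (-0.61, adjusted p 0.0583) and without the library block (-0.62, edgeR adjusted p 0.178). It also missed it when library 2 (-0.60, edgeR adjusted p 0.365) or library 3 (-0.61, edgeR adjusted p 0.324) was left out, where the calls of all genes fell from 1324 to 422 and 360. Without library 1, 2441 genes passed, Il34 among them (0.54, edgeR adjusted p 0.0465). The other genes had positive or near-0 values that did not pass: Cd200 0.75 (edgeR adjusted p 0.0876), Il34 0.53 (edgeR adjusted p 0.120), Sirpa 0.51 (edgeR adjusted p 0.126) and Cd47 0.00 (edgeR adjusted p 0.998). Interneurons, with 11 and 36 cells in libraries 1 and 2, had 375 and 367 CPM of Cx3cl1, below the other neuron classes, and were not tested. Glutamatergic cells were deeper (median 3909 UMIs) than spiny neurons (2433 UMIs).

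**Figure D5:**
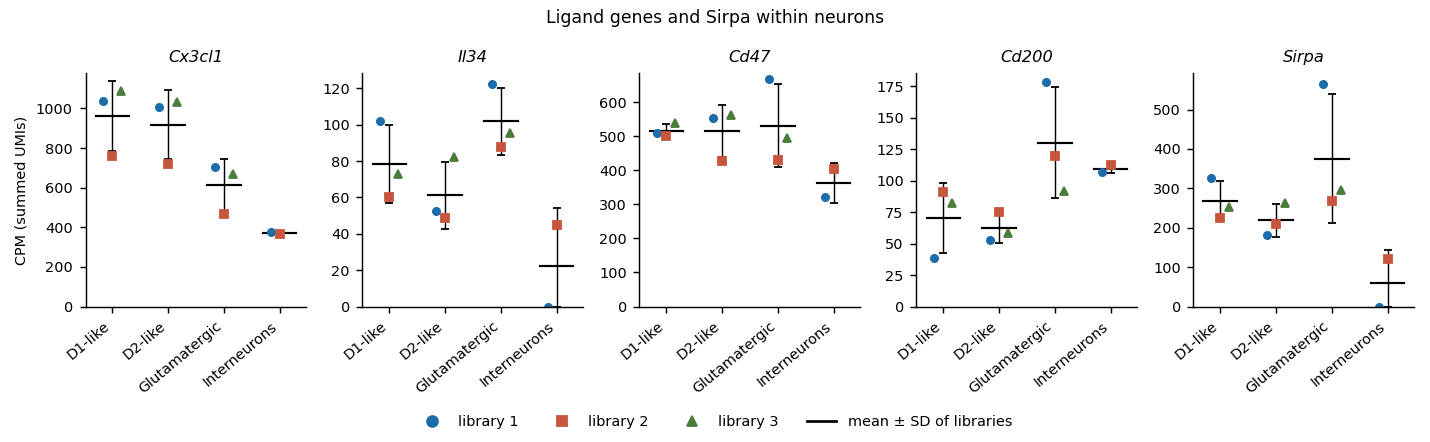
Levels of 4 ligand genes and Sirpa (CPM) in D1-like, D2-like and glutamatergic neurons and interneurons; points are libraries, the bar is the mean and whiskers are ± SD, cut off at 0. Cx3cl1 in glutamatergic neurons lies between 465 and 705 CPM, below the spiny classes in each library.

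Neurons with at least 1 UMI of the mCherry feature, taken as the FLiCRE reporter, were compared with neurons without it. There were 39, 542 and 89 labelled and 537, 2256 and 703 unlabelled neurons. Of 5 tested genes of the set 0 passed with edgeR (0.0201% of 9939 genes passed), 1 had an unadjusted p under 0.05 and 0 passed with DESeq2. That gene was Cd200, at 112, 107 and 98.75 CPM in labelled and 67.4, 91.4 and 81.9 CPM in unlabelled neurons. The ranges did not overlap, with a log2 fold change of 0.30 (SE 0.118, edgeR adjusted p 0.804). Cx3cl1 was 867, 593 and 885 CPM in labelled and 936, 709 and 909 CPM in unlabelled neurons, a log2 fold change of -0.14 (SE 0.0788, edgeR adjusted p 0.823). Labelled neurons were deeper, with a median of 3258.5 against 2201.5 UMIs, and the part of depth in these values was not tested.

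Genes with a like pattern were sought by Pearson correlation of log2(CPM + 1) over 29 sums of class and library, among 11710 genes with a mean of at least 5 CPM and without the class markers. Sums of 1 library share depth and preparation, so r is a description. Csf1r was most like Spi1 (0.91) and Irf8 (0.90), and Cx3cr1 most like Ly86 (0.96) and Pld4 (0.96). Cx3cl1 was most like the synaptic vesicle gene Vamp2 (0.81) and Ngfrap1 (0.81). Il34 was most like Fhl2 (0.86) and Gpr153 (0.84), Csf1 like Plod1 (0.80) and Metap1d (0.79), and Cd200 like Cdc42ep3 (0.76) and Tpm1 (0.74). For Cd47 the nearest genes were Ipcef1 (0.80) and Dok2 (0.72), and for Sirpa Fnip1 (0.86) and Ccdc107 (0.86).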

How the data were processed

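Single-cell libraries were made with the 10x Genomics 3′ v2 kit, per the labels. The values the authors deposited are UMI counts, whole numbers for each gene in each cell, made with Cell Ranger 3.0 on mm10, per the submitters' processing notes (3.0.0 in the file header). The 3 libraries are pooled in 1 matrix of 11625 cells; no label ties a barcode suffix to a numbered replicate, and whether depth was equalised on pooling is not given in the sources used here. The annotation release and the rule that called cells are likewise not given.

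Cells were required to show 300 genes or more and no more than 20% of UMIs from mitochondrial genes, and the highest Scrublet scores (scanpy 1.11.5) were removed at 0.8% per 1000 cells (368 cells), leaving 9923 with 2788685, 14563414 and 6267259 UMIs. The 3 added construct features were left out of the fits of labelled against unlabelled neurons. They stayed in the sums of the other fits and in the totals behind CPM. Labelled neurons were marked by mCherry. A cell belonged to a class with at least 3 different markers of its list and at most 0.5 times as many of every other list. MHC-II macrophages also needed 2 class II genes and 1 of Lyz2, Ms4a7 and Ms4a6c, and neuron classes 2 markers. The T cell markers Trac and Trbc2 were not matched. Of the gated cells, 20.9% of microglia, 1.81% of MHC-II macrophages and 37.9% of T cells sat at the minimum of markers.

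Counts were summed per class and library (at least 10 cells) and tested with edgeR 4.0.16 in R 4.3.3 (TMM, filterByExpr, robust quasi-likelihood with bias-adjusted deviances, library block). Library is a block by design, as each library gives both classes of a comparison. DESeq2 1.42.0, other filters, gates, priors, doublet rules, Leiden clusters and leaving out each library were alternatives. Shares of cells were thinned to 1000 UMIs. The test was checked on simulated data, in which only well-counted genes were raised, with a fixed dispersion and no library effect. For microglia against MHC-II macrophages (1498 genes) it recovered 43.3% of 2-fold, 100% of 4-fold and 100% of 8-fold changes, with 15 false calls. These shares do not carry over to genes with fewer counts or to library effects. Pathway genes named are up to 5 higher and 5 lower of largest change among those that passed and moved the same way in every library, and the 2 genes most like each of the 9 by pattern (those of Cd200r1 are not reported here). The 9 genes, lists, gates and settings were chosen with earlier results of these data known. Spi1, Irf8 and Ptpn6 were named beside that rule after their values were seen.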

Additional observations from a re-analysis of the deposited data

How the results depend on the processing

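The direction and call of Cx3cl1, Il34, Cd47, Cd200 and Csf1 in neurons over astrocytes, and of Csf1r and Cx3cr1 in microglia over neurons, held under each alternative run. Of 644 alternatives of single genes, 592 kept direction and call, 22 lost the call, 11 gained one and 19 changed sign, and of 157 alternatives of counts and orders 146 stayed near the reported value. Counts of the 9 genes that passed moved as follows. Between microglia and neurons 6 passed, and 2 to 4 with 1 library left out. Between glutamatergic and spiny neurons 1 passed, 0 with DESeq2, 0 with no replicate block, 2 with classes from clusters, and 0 to 2 with 1 library left out. Among pathway genes, the 7 between microglia and MHC-II macrophages became 3 with only cells of at least 1000 UMIs and 1 to 8 with 1 library left out, and the 22 between microglia and neurons 14 to 21. With no replicate block the counts of the 9 genes were 3 between microglia and MHC-II macrophages and 6 between microglia and neurons, as with the block, and it ended no other call than that of Cx3cl1 between glutamatergic and spiny neurons.

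Changes of sign were limited to 5 values near 0, none of which passed as reported. Sirpa in neurons over astrocytes was -0.011 with no replicate block, -0.044 with a gate of 2 markers, -0.031 where other lists needed only fewer markers, -0.021 in cells of at least 1000 UMIs and -0.15 to 0.24 with 1 library left out. Between D1-like and D2-like neurons Cd47 was -0.022 with no replicate block and -0.10 to 0.13 with 1 library left out, and Cx3cl1 was -0.0067 with classes from clusters. Cd47 in glutamatergic over spiny neurons was -0.056 with no filter, -0.0084 with library totals, -0.0033 with a gate of 4 markers, -0.012 with a gate of 2 markers, -0.015 where other lists needed only fewer markers, -0.045 with classes from clusters and -0.082 to 0.081 with 1 library left out. Sirpa in labelled neurons was 0.082 with DESeq2, 0.099 with no replicate block and -0.098 to 0.28 with 1 library left out. What causes them was not tested. The class with the highest mean changed between mural cells and fibroblasts for Il34 and between neurons and T cells for Cd47 in some settings, between oligodendrocytes and fibroblasts for Csf1 in 1 setting, and for Cd200r1, with 15 UMIs, in 4. T cells and fibroblasts rest on 2 libraries, and 2-fold differences between the phagocytes were often missed in the simulated data.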
